A study of Danio rerio with 12 samples.

Results

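Zebrafish embryos of the AB strain were profiled at 24 hours after fertilization, and 4 of the 12 libraries share the description code 1242. They carry the letter D or E after the code, with 1 library from sperm of a fed male and 1 from sperm of a starved male under each letter. The comparison set the 2 D libraries (replicate 5 of each father group) against the 2 E libraries (replicate 6) over all 13680 listed genes, with father group as a covariate. All eggs came from fed wild-type females and were fertilized in vitro, and each library held RNA of 1 to 3 whole embryos. The other 8 libraries (replicates 1 to 4 of both father groups, codes 1118, 1203, 1210 and 1219) served to estimate the spread. The labels do not say what D and E stand for, nor whether the 4 libraries came from separate males, females or clutches. The p-values measure how starved minus fed varied between replicate numbers, a spread that may be partly technical. They do not measure how far replicate numbers lie apart from each other, because the fit takes up those differences. The study itself asked how embryos of starved fathers differ from embryos of fed fathers, and D against E is a comparison within that design at a fixed code.

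At this age a zebrafish embryo has formed its somites, and the fast fibres that make up most of the trunk muscle are filling with sarcomeres. Epidermis covers the body, hatching gland cells on the yolk store the proteases that later dissolve the chorion, the lens is laying down crystallins, and the yolk syncytial layer packages lipid into lipoproteins. Libraries from pools of a few whole embryos carry all of these tissues together, so a lower value of a tissue's genes can mean fewer cells of that tissue or less RNA per cell, and these cannot be told apart here. Each measured fast muscle, hatching gland, lens, globin and epidermal gene on the lists used below had reads in at least 1 of the 4 libraries. Some genes chosen for these lists were not measured and are not covered by this, most of all for the lens, where 19 of 30 were measured.

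Values are counts of reads after the authors' scaling of each library, in which 1 read is worth 0.2336 to 0.3743. The fed D library held 3283777 reads over the listed genes, the starved D library 3370487, the fed E library 3625996 and the starved E library 3934765. The most abundant listed gene, ENSDARG00000080337 (chromosome MT, 2043 to 3725 in GRCz11), took 48.7% of the reads of the fed D library, 46.7% of the starved D, 46.4% of the fed E and 35.5% of the starved E library. The fed D library stood at the end of the range for many gene lists: its score was the highest of the 12 libraries for ribosomal, respiratory chain, epidermal, hatching gland and yolk layer genes. The fed library of replicate 4 resembled it in muscle, lens, synapse, hatching gland and yolk layer genes, as the plot of list scores shows. Its scores were 0.928 for yolk layer lipoproteins and 0.918 for hatching gland genes, beside 1.18 and 1.2 in the fed D library. For synapse and axon genes they were -0.683 and -0.677. The 2 libraries were further apart for respiratory chain genes (0.115 beside 0.406). Starved replicate 4 lay the same way, with scores of -0.862 for fast muscle, -1.4 for lens and -0.537 for synapse and axon genes. It scored 0.436 for hatching gland genes and 0.4 for yolk layer lipoproteins. In the same order the starved D library scored 0.0941, -0.024, -0.089, 0.13 and -0.571. These tissue patterns are thus not particular to letter D.

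Called genes higher in D included 14 of 77 cytosolic ribosomal proteins, 7 of 91 nuclear respiratory chain genes, 7 of 30 epidermal genes and 3 of 12 hatching gland genes, and those lower in D included 5 of 31 fast muscle genes and 3 of 29 sarcomere genes. In all, 159 of 13680 genes (1.16%) passed an adjusted p of 0.05 (limma on log2(value + 1), Benjamini-Hochberg over all genes). Of these, 106 (0.775% of all genes) were higher in D and 53 (0.387%) were lower. The smallest adjusted p was 1.19e-06, and 1767 genes had an unadjusted p below 0.05, 948 of them higher in D. All 106 higher genes had both D libraries above both E libraries, against 21.1% of all genes, and 52 of the 53 lower genes had both D libraries below both E libraries, against 20.4% of all genes. The genes were called on the difference between these 4 libraries, so this separation is largely a result of how they were chosen. A difference of at least 2-fold in the same direction in both father groups was met by 351 genes higher in D (2.57%) and 227 lower (1.66%), which included 61 and 29 of the called genes.

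These calls depend on how the spread is estimated and on single libraries. No gene passed when replicate number was left out of the fit (no replicate block, smallest adjusted p 0.0695, 1150 genes at an unadjusted p below 0.05) or when the 4 libraries were fitted alone (smallest adjusted p 0.0613, 1280 genes). Without the fed D library 20 genes passed and without the fed E library 14, whereas 272 passed without the starved D library. The total was unchanged without the starved E library, but many of the genes called were then different ones, and fewer of them were lower in D. Leaving out replicate 1 of the fed group gave 32 lower genes, and leaving out replicate 1 of the starved group gave 33. On a scale that equalised the reads outside the mitochondrial chromosome, 82 genes were higher and 82 lower, so the share of higher genes went from 66.7% to 50% while the median of all genes moved from -0.01 to -0.09 on the log2 scale. The edgeR quasi-likelihood test on recovered reads called 106 genes, 81 higher and 25 lower. All 159 called genes kept the sign of their difference in each of these fits. Fits without replicate number, on the 4 libraries alone or without replicate 1 give the same estimate per gene, so the sign there could not change. The genes were also chosen on the difference between these same 4 libraries, so kept signs are no independent support.

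**Figure D1:**
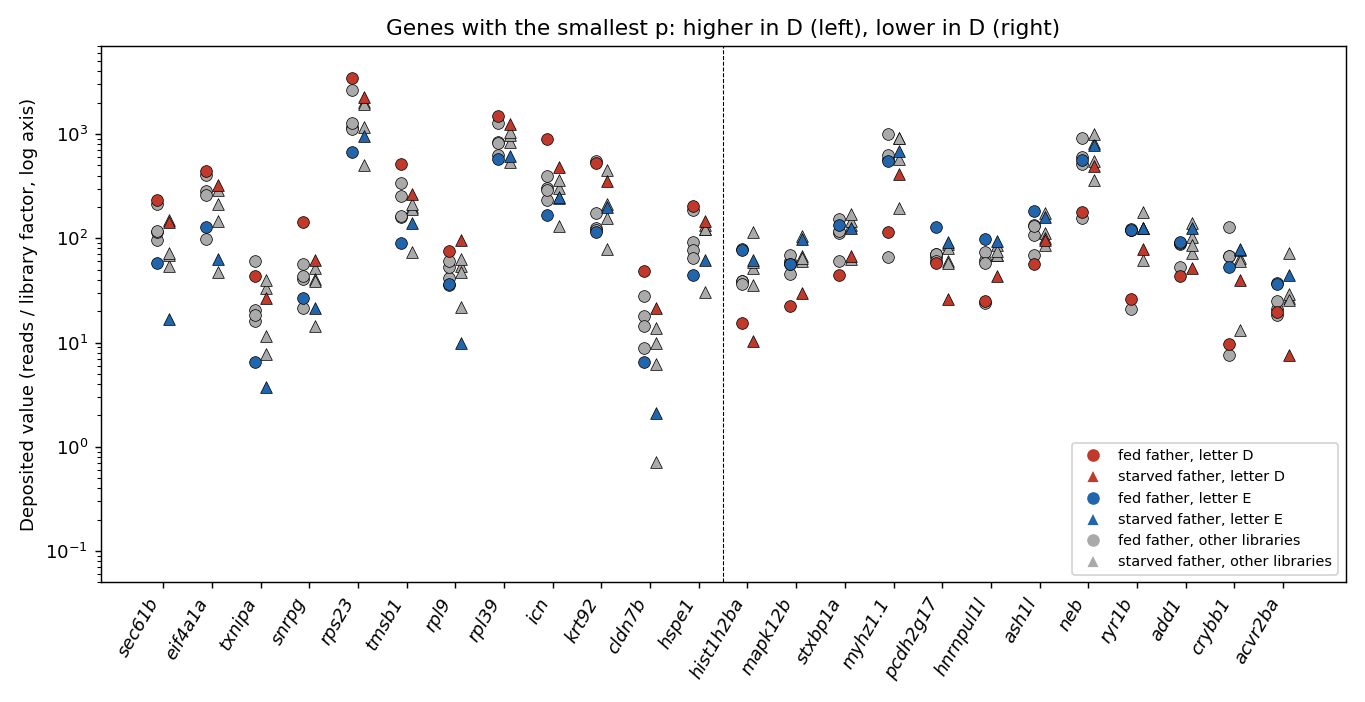
Deposited values (log axis) of the 12 called genes with the smallest p higher in D (left of the dashed line) and the 12 lower in D (right), 1 point per library, circles for fed and triangles for starved fathers. D libraries are red, E libraries blue and the other 8 libraries grey; the D and E points of each gene do not overlap, and the grey points often reach past them.

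The gene with the smallest p was sec61b, which encodes the beta subunit of the channel that passes new proteins into the endoplasmic reticulum (chromosome 16, 27224068 to 27231659 in GRCz11). Its value was 234 in the fed D library, 142 in the starved D, 57.8 in the fed E and 16.8 in the starved E library. Both D libraries were above both E libraries, and the other 8 libraries ranged from 54.2 to 215, so the starved E library lay below every other library. The log2 difference (D minus E, ± SE) was 2.5 ± 0.26 (adjusted p = 1.19e-06). The RNA helicase of translation initiation eif4a1a (chromosome 7, 26510827 to 26518086) stood at 442 and 326 in the fed and starved D libraries and at 128 and 62.6 in the fed and starved E libraries. The D libraries were again the higher pair, at a log2 difference of 2.07 ± 0.26 (adjusted p = 2.79e-05). Next was txnipa (chromosome 19, 24488403 to 24492326), the thioredoxin-interacting protein that restrains glucose uptake in mammals, at 43.0 and 26.8 in D and 6.46 and 3.74 in E (fed before starved), a log2 difference of 2.56 ± 0.39 (adjusted p = 0.000854). Both E values of txnipa lay under the lowest of the other 8 libraries, 7.71. Of 55 called genes followed through every omission of 1 library, only sec61b, eif4a1a and txnipa kept an adjusted p below 0.05 whichever of the 12 libraries was left out, with largest values of 0.00032, 0.0024 and 0.0258.

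Further genes among the 12 with the smallest p higher in D were snrpg, tmsb1 and hspe1, and the others are described with their gene lists. The spliceosome core protein snrpg rose by 1.94 ± 0.32 on the log2 scale (adjusted p = 0.00176), and its fed D value of 143 was above all other libraries, including the starved D library at 62.4. Its E values were 26.7 and 21.5. The actin monomer binding thymosin tmsb1 rose by 1.70 ± 0.29 (adjusted p = 0.00221), from 90.1 to 512 with fed fathers and from 139.7 to 264 with starved fathers. The mitochondrial co-chaperonin hspe1 rose by 1.69 ± 0.31 (adjusted p = 0.00359). Among called genes that lie outside the naming rule and were picked after their values were seen, the mitochondrial import chaperone timm8b rose by 2.19 ± 0.42, the LSm ring protein lsm3 by 1.66 ± 0.31 and dad1, a subunit of the enzyme that attaches sugars to new proteins in the endoplasmic reticulum, by 1.66 ± 0.34 (adjusted p 0.00588, 0.00482 and 0.00804).

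**Figure D2:**
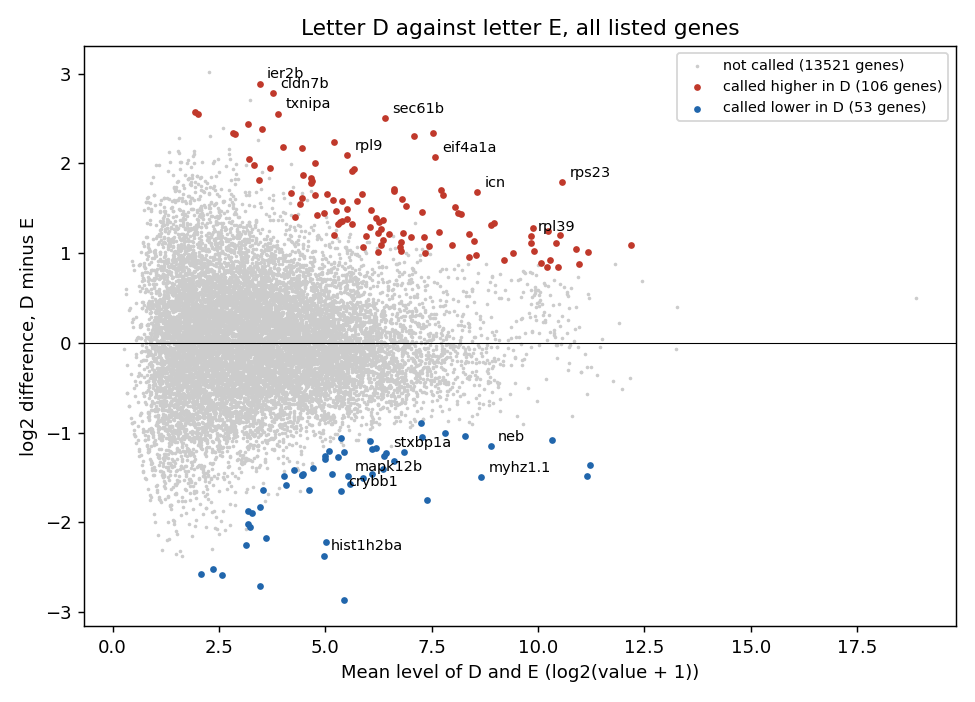
Log2 difference D minus E (y axis) against the mean level of both letters as log2(value + 1) (x axis) for 13680 genes, with 106 called higher in D in red and 53 called lower in blue. Called genes reach from low levels (ier2b) to high levels (rps23), and several of the abundant called genes on the lower side are muscle genes (neb, myhz1.1).

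Cytosolic ribosomal proteins, the protein components of the ribosome outside mitochondria, were the list with the most called members. Of 77 measured members 14 were called higher in D and 0 lower, beside 0.775% of all genes called higher, and 60 of the 77 (77.9%) had both D libraries above both E libraries, beside 21.1% of all genes. Their median log2 difference was 0.53, beside -0.01 for all genes, with 0.57 for fed fathers and 0.47 for starved fathers. The 44 large subunit proteins held 6 of the calls and the 33 small subunit proteins 8, and all 33 small subunit differences were positive. The small subunit protein rps23 stood at 3432 in the fed D and 2248 in the starved D library. It stood at 672 in the fed E and 955 in the starved E library, a log2 difference of 1.79 ± 0.30 (adjusted p = 0.00209). The D libraries were the higher pair, yet the other 8 libraries spanned 507 to 2630 and so covered the starved D and both E values. For rpl39 of the large subunit the D values were 1496 and 1251 and the E values 577 and 622 (fed before starved), with a log2 difference of 1.19 ± 0.21 (adjusted p = 0.00231). Both E values lay near the bottom of the range of the other libraries, 536 to 1263. The large subunit protein rpl9 rose by 2.09 ± 0.36 (adjusted p = 0.00231), with the smaller step from 36.7 to 76.0 in the fed pair and the larger from 9.81 to 95.4 in the starved pair. The large subunit gene rpl11 rose by 1.24 ± 0.23 (adjusted p = 0.00426).

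Summed over the list, ribosomal protein values were 112356 in the fed D, 105726 in the starved D, 75557 in the fed E and 78753 in the starved E library. Both D sums exceeded the highest of the other 8 libraries, 103625, while both E sums lay inside their range, whose lowest was 69523. The rest of the translation machinery had smaller medians. Of 75 translation factors 2 were called higher and 1 lower (4%, beside 1.16% of all genes), with a median of 0.13. By limma 18 of the 75 had an unadjusted p below 0.05, 12 higher and 6 lower, beside 1767 of 13680 genes. In 26 (34.7%, beside 21.1% of all genes) both D libraries were above both E libraries. In 7 (9.33%, beside 20.4%) they were below. The initiation factor subunit eif2s3 rose by 1.01 ± 0.26 (adjusted p = 0.0489), and the elongation factor copy eef2l2 fell, with a log2 difference of -1.49 ± 0.38 (adjusted p = 0.0451). Of the 72 genes of ribosome biogenesis, which build the particle in the nucleolus, none was called by limma, 5 had an unadjusted p below 0.05, and the median was 0.01.

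The nuclear genes of the respiratory chain, which makes ATP in mitochondria, followed with 7 of 91 called higher (beside 0.775% of all genes) and 0 lower. Their median log2 difference was 0.65, with 0.83 in the fed pair and 0.35 in the starved pair, and 61 of the 91 (67%) had both D libraries above both E libraries, beside 21.1% of all genes. Genes were assigned to complexes by the start of their symbol, so complexes I and II also hold assembly factors (ndufaf and sdhaf genes). Complex I (NADH dehydrogenase) held 3 calls among 42 genes, complex IV (cytochrome c oxidase) 1 among 13 and complex V (ATP synthase) 3 among 19. None of the 8 genes counted under complex II or the 9 under complex III was called. The medians of these groups were 0.68 for complex I, 0.21 for II, 0.83 for III, 0.72 for IV and 0.54 for V. The ATP synthase subunit atp5pf stood at 152 in the fed D, 110.5 in the starved D, 49.9 in the fed E and 49.5 in the starved E library. Both D values exceeded the maximum of the other 8 libraries, 99.7, and the E values lay within their range. The log2 difference was 1.37 ± 0.26 (adjusted p = 0.00588). The complex IV subunit cox6b2 rose by 1.24 ± 0.25 and the complex I subunits ndufa12 and ndufa1 by 1.64 ± 0.35 and 1.39 ± 0.31 (adjusted p 0.00804, 0.0107 and 0.016). None of the 12 listed genes of the mitochondrial genome was called by limma (3 at an unadjusted p below 0.05, median 0.31). The nearest was mt-atp6, at 0.78 ± 0.21 (adjusted p = 0.0601). None of the 74 mitochondrial ribosomal proteins was called either (9 at an unadjusted p below 0.05, median 0.32).

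**Figure D3:**
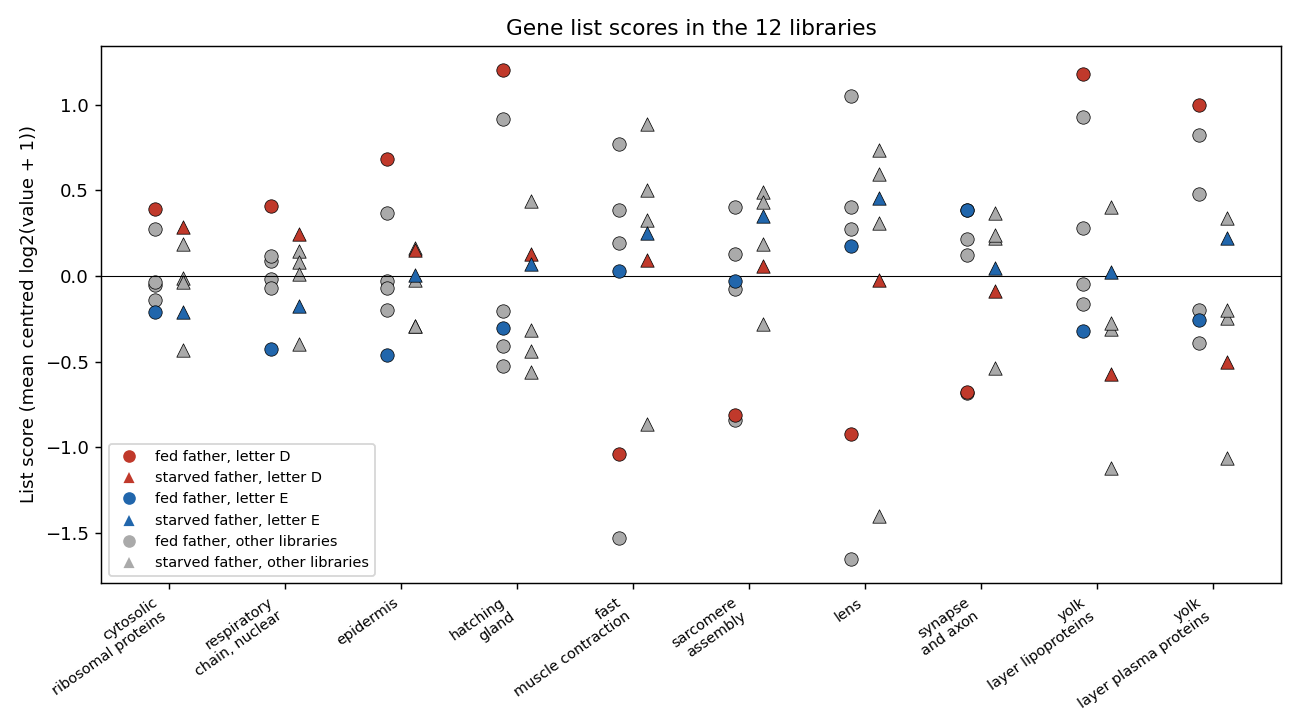
Score of 10 gene lists in each of the 12 libraries, the mean over members of log2(value + 1) centred per gene; circles are fed and triangles starved fathers, D red, E blue, other libraries grey. Both D libraries are above both E libraries for ribosomal and respiratory chain genes, while for yolk layer genes the fed D library is at the top and the starved D library near the bottom.

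Among epidermal genes, 7 of 30 measured members were called higher in D (beside 0.775% of all genes) and 0 lower, with a median of 0.55. The difference was positive for all 30 in the fed pair (median 1.04) and for 17 of 30 in the starved pair (median 0.11). Ictacalcin, icn, a calcium-binding protein of the fish skin, stood at 895 in the fed D and 487 in the starved D library, against 168 in the fed E and 251 in the starved E library. Both D values were above the highest of the other 8 libraries, 398. This gave a log2 difference of 1.68 ± 0.29 (adjusted p = 0.00233). The copy icn2 on the same chromosome, not on the epidermal list, rose by 1.22 ± 0.29 (adjusted p = 0.0307), though the fed pair carried most of this, with 671 against 140.0, and the starved pair stood at 336 and 296. Reads that could be split between icn and icn2 by the authors' counting make both values less certain. The keratin krt92 rose by 1.51 ± 0.26, krt17 by 1.61 ± 0.30 and the epidermal cytokeratin cyt1 by 1.05 ± 0.25 (adjusted p 0.00234, 0.00426 and 0.0296). The tight junction protein cldn7b, also outside the list, had D values of 48.3 and 21.3 and E values of 6.46 and 2.1 (fed before starved), a log2 difference of 2.78 ± 0.49 (adjusted p = 0.00239). Summed epidermal values were 19605 in the fed D, 16080 in the starved D, 9689 in the fed E and 10932 in the starved E library, where the other 8 libraries ranged from 8441 to 16201.

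Among 12 hatching gland genes 3 were called higher (beside 0.775% of all genes) and 0 lower, with a median of 0.87 that was 1.76 in the fed pair and 0.24 in the starved pair. The hatching enzyme gene he1.1, a protease of the chorion, stood at 1283 in the fed D, 429 in the starved D, 269.7 in the fed E and 318 in the starved E library. The fed D value was above all other libraries, and the remaining D and E values lay within the range of the other 8, 193 to 787. Its log2 difference was 1.34 ± 0.31 (adjusted p = 0.0209). The tetraspanin cd63, found on secretory and lysosomal membranes, rose by 1.58 ± 0.34 (adjusted p = 0.0143). The remaining call was 1 of 3 genes listed under the symbol ctslb, with a log2 difference of 1.452 ± 0.333 (adjusted p = 0.0209). The other ctslb genes were not called and went opposite ways, at 1.297 ± 0.469 and -1.796 ± 0.691 (adjusted p 0.21 and 0.247). The transcription factor xbp1 of secretory cells had a difference of 0.72 ± 0.23 that missed the threshold (adjusted p = 0.118).

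In the opposite direction, 5 of 31 fast muscle genes were called lower in D (beside 0.387% of all genes) and 0 higher, with a median of -0.57. That median was -1.16 with fed fathers and -0.23 with starved fathers. In the fed pair 29 of the 31 genes were lower in D, and in the starved pair 20 of 31. Only 10 of the 31 (32.3%) had both D libraries below both E libraries, beside 20.4% of all genes. List scores were -1.04 in the fed D, 0.09 in the starved D, 0.03 in the fed E and 0.25 in the starved E library. The starved D score was thus above the fed E score, so the letters overlapped for the list. The fast myosin heavy chain myhz1.1 had values of 115 in the fed D, 414 in the starved D, 549 in the fed E and 695 in the starved E library. The D values were the lower pair, and the fed D value was the lowest but one of the 12 libraries. The log2 difference was -1.50 ± 0.30 (adjusted p = 0.00804). The calcium release channel of muscle ryr1b stood at 26.2 and 78.9 in D and 121 and 125 in E (fed before starved), with a log2 difference of -1.41 ± 0.31 (adjusted p = 0.0167). The calcium pump atp2a1 and the fast troponin tnnt3b fell too, with log2 differences of -1.08 ± 0.25 and -1.01 ± 0.25 (adjusted p 0.0235 and 0.0364). For tnnt3b the starved D value of 224 was above the fed E value of 188, so that the letters overlapped.

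Genes of sarcomere assembly gave 3 calls lower among 29 (beside 0.387% of all genes; 0 higher, median -0.48), all of them giant proteins of the sarcomere. Only 9 of the 29 (31%) had both D libraries below both E libraries, beside 20.4% of all genes. List scores were -0.81 in the fed D, 0.06 in the starved D, -0.03 in the fed E and 0.35 in the starved E library. Here too the starved D score was above the fed E score. Nebulin, neb, which spans the thin filament, stood at 180.4 in the fed D, 492 in the starved D, 565 in the fed E and 778 in the starved E library. The fed D value was far below the other 3, and only the lowest of the remaining 8 libraries, 155, was below it. Nebulin differed by -1.15 ± 0.25 on the log2 scale (adjusted p = 0.0159). The titin copies ttn.1 and ttn.2, which lie near each other on chromosome 9, fell, with log2 differences of -1.48 ± 0.37 and -1.36 ± 0.35 (adjusted p 0.0392 and 0.0484), and reads shared between the copies make their values less certain. Of 8 slow muscle genes none was called by limma (1 at an unadjusted p below 0.05) and the median was -0.03. The slow myosin smyhc1 had a difference of -0.57 ± 0.23 (adjusted p = 0.269). None of 15 myogenic transcription factors was called by limma (2 at an unadjusted p below 0.05, median -0.12).

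Genes of the synapse and axon had 2 of 25 members called lower (beside 0.387% of all genes), 0 higher and a median of -0.57 (fed pair -0.98, starved pair -0.13). Both D libraries were below both E libraries in 14 of the 25, 56% beside 20.4% of all genes. The syntaxin-binding protein stxbp1a, which prepares synaptic vesicles for fusion, stood at 44.5 in the fed D, 67.9 in the starved D, 134 in the fed E and 126 in the starved E library. The D values were the lower pair at a log2 difference of -1.22 ± 0.24 (adjusted p = 0.00687). The neurofilament nefmb fell, with a log2 difference of -1.48 ± 0.39 (adjusted p = 0.0489), whereas the vesicle fusion protein snap25a, at -1.2 ± 0.34, missed the threshold (adjusted p = 0.0709). The neuronal RNA-binding protein elavl3, from the list of 27 neuronal differentiation factors in which limma called none (4 at an unadjusted p below 0.05), had a difference of -0.89 ± 0.24 (adjusted p = 0.0615).

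Lens genes had 1 of 19 called, lower in D (beside 0.387% of all genes), and the most negative median of the lists with at least 5 measured members, -0.79 (fed pair -1.03, starved pair -0.60). The called gene crybb1, a beta crystallin of the lens fibre, stood at 9.73 in the fed D, 39.5 in the starved D, 52.5 in the fed E and 79.0 in the starved E library. The D values were the lower pair, and the other 8 libraries ran from 7.53 to 129, wider than the 4. The log2 difference was -1.65 ± 0.38 (adjusted p = 0.0209). None of 12 retina and eye field genes was called by limma (3 at an unadjusted p below 0.05, median -0.38). The same held for 28 collagens (5 at an unadjusted p below 0.05, median -0.42), of which 14 (50%) had both D libraries below both E libraries, beside 20.4% of all genes.

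The remaining genes with the smallest p on the lower side are on no list described so far. The H2B gene hist1h2ba (chromosome 25, 35048945 to 35049318) stood at 15.3 in the fed D, 10.3 in the starved D, 77.5 in the fed E and 62.1 in the starved E library. Both D values were below every other library, whose lowest value was 35.6. The log2 difference was -2.37 ± 0.38 (adjusted p = 0.00175). Histone genes have many near-identical copies, so reads of this gene may belong to others. It was the only one called among 50 histone genes (2%, beside 1.16% of all genes), whose median was -0.19. By limma 13 of the 50 had an unadjusted p below 0.05, 8 lower and 5 higher, beside 1767 of 13680 genes. The stress kinase mapk12b (p38 gamma) fell, as did the histone methyltransferase ash1l, the membrane skeleton protein add1 and the activin receptor acvr2ba, with log2 differences of -1.49 ± 0.27, -1.22 ± 0.26, -1.17 ± 0.26 and -1.64 ± 0.38 (adjusted p 0.00359, 0.0143, 0.0174 and 0.0209). The nuclear RNA-binding protein gene hnrnpul1l and the clustered protocadherin pcdh2g17 fell too, with log2 differences of -1.51 ± 0.31 and -1.46 ± 0.29 (adjusted p 0.0101 and 0.00804). Outside the naming rule and picked after their values were seen, further chromatin genes among the calls were jarid2b of the Polycomb complex, the acetyltransferase kat6a and mta3 of a deacetylase complex, with log2 differences of -1.26 ± 0.30, -1.46 ± 0.36 and -1.41 ± 0.34 (adjusted p 0.0296, 0.0382 and 0.0286).

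Stress, cell cycle and metabolic lists held at most 1 call each. Where 1 member was called, it made up 2.22% (DNA replication) to 5.26% (heat shock) of the list, beside 1.16% of all genes called. A single call describes the gene and not the list. Members at an unadjusted limma p below 0.05 numbered 7 of 25 immediate early genes, all higher, and 12 of 38 proteasome genes, 10 higher. They numbered 3 of 23 antioxidant, 4 of 19 heat shock, 8 of 45 DNA replication, 10 of 43 mitosis and 4 of 29 glycolysis genes. Over all genes the number was 1767 of 13680. Of 25 immediate early genes, which respond within minutes to stimuli, 1 was called higher, with a list median of 0.34. This was ier2b, at 17.6 in the fed D, 43.2 in the starved D, 2.93 in the fed E and 2.80 in the starved E library (log2 difference 2.89 ± 0.65, adjusted p = 0.0174). The other 8 libraries ran from 0.86 to 67.7, beyond the 4 at both ends. The Fos transcription factor gene fosab of the same list, chosen after its values were seen, stood at 67.6 in the starved D library and between 0.29 and 2.57 in the other 3 (adjusted p = 0.29). In the antioxidant list 1 of 23 was called, gstp1, a glutathione transferase, which rose by 1.50 ± 0.32 (adjusted p = 0.0121). The heat shock list (1 of 19) was called through hspe1 alone, and its median was -0.04. The proteasome list (1 of 38) had psma6a, up by 1.59 ± 0.33, the DNA replication list (1 of 45) rpa3, up by 1.35 ± 0.34, and the mitosis list (1 of 43) cyclin B1, ccnb1, up by 1.2 ± 0.30 (adjusted p 0.0101, 0.0364 and 0.042). Glycolysis had 1 of 29 called, the enolase eno1a, which fell with a log2 difference of -1.06 ± 0.27 (adjusted p = 0.0454), with a list median of -0.01. The muscle enolase eno3 had a difference of -0.94 ± 0.25 (adjusted p = 0.0572). The lists of circadian clock, p53 response, sterol synthesis, fatty acid oxidation, glucocorticoid response, amino acid response and Hox genes had 0 called by limma, with 2, 0, 0, 1, 0, 2 and 0 members at an unadjusted p below 0.05.

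The D minus E differences were wider in the fed-father libraries than in the starved-father libraries. Over 8921 genes with a mean value of at least 5, the SD of the log2 difference was 0.83 in the fed pair and 0.66 in the starved pair, and Pearson's r between the pairs was 0.22 across genes, which share their libraries and are not independent replicates. The fed pair had the larger difference in 82 of the 106 higher and 38 of the 53 lower genes. No gene passed the test of whether D minus E itself differed between father groups (limma, smallest adjusted p 1, 379 genes at an unadjusted p below 0.05), and no other setting or tool run for it called any. That test had no replicate term, unlike the fit behind the 159 calls, so its spread also held differences between replicate numbers. With replicate number left out, D against E called 0 genes too. The lack of calls is thus no sign that the father groups were alike. At least 2-fold differences in opposite directions were seen in 241 genes, 147 of them higher in D with fed fathers and lower with starved fathers.

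**Figure D4:**
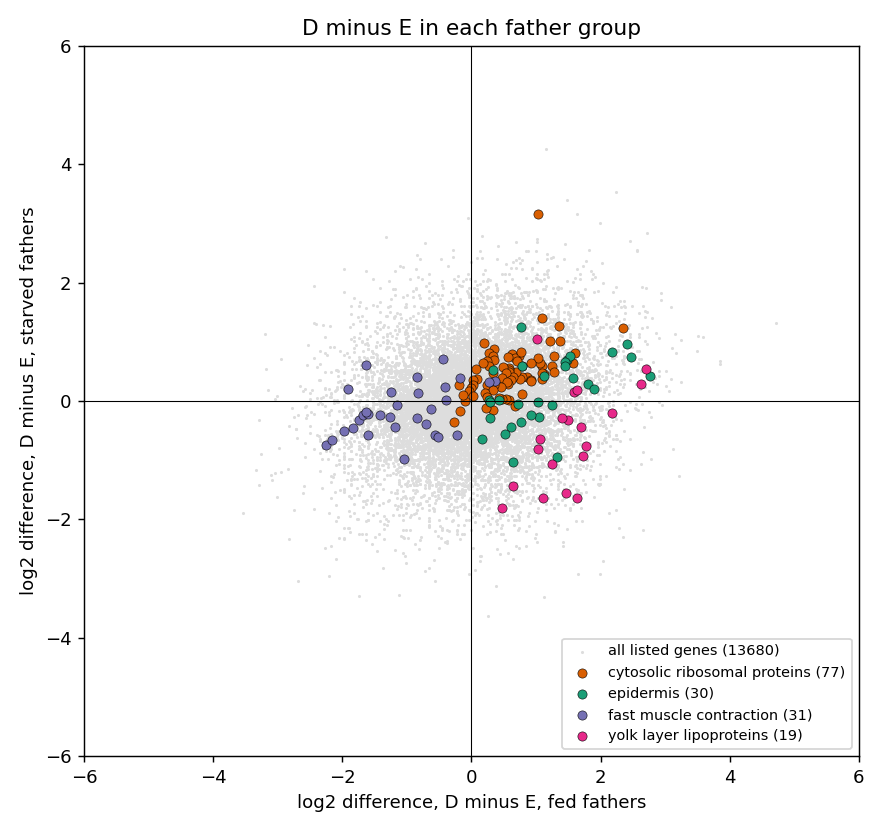
Log2 difference D minus E with fed fathers (x axis) and with starved fathers (y axis), 1 point per gene, for all 13680 genes (grey) and 4 gene lists (coloured). Ribosomal protein genes lie mostly above 0 on both axes, fast muscle genes mostly left of 0, and the 19 lipoprotein genes all right of 0 with 14 of them below 0 for starved fathers.

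Yolk layer genes mostly had opposite signs in the 2 pairs, although no gene passed the test of that difference. Over all genes, 5914 of 13680 had opposite signs. The split was not particular to the yolk layer. It was seen in 17 of 31 lysosomal, 13 of 17 heart and 12 of 13 p53 response genes, but in 8 of 77 cytosolic ribosomal proteins. All 19 lipoprotein genes of the yolk layer were higher in D in the fed pair (median log2 difference 1.49), and 14 of the 19 were lower in D in the starved pair (median -0.64). Averaged over fathers the median was 0.51 and limma called none (7 at an unadjusted p below 0.05). List scores were 1.18 in the fed D, -0.57 in the starved D, -0.32 in the fed E and 0.03 in the starved E library, so the 2 D libraries stood at rank 12 and rank 2 of the 12. The apolipoprotein apoa1a stood at 2082 in the fed D and between 690.0 and 827 in the other 3 libraries (adjusted p = 0.0624), while apoc2, the cofactor of lipoprotein lipase, stood at 217 in the fed D, 50.1 in the starved D, 78.1 in the fed E and 149 in the starved E library. D was thus the higher letter for apoc2 with fed fathers and the lower with starved fathers. Yolk layer plasma proteins had the same split (21 of 21 higher in the fed pair, 18 of 21 lower in the starved pair) and 1 call, the retinol carrier rbp4, which rose by 1.71 ± 0.32 (adjusted p = 0.00426). Its values were 265 in the fed D, 106 in the starved D, 43.7 in the fed E and 58.4 in the starved E library, with D above E in both pairs.

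The genes with the smallest unadjusted p for a difference between fathers were hmox1a, myl7, apoc2, icn2 and tagln2, each at an adjusted p of 1. The heme oxygenase hmox1a stood at 50.2 in the fed D and 5.15 in the starved D, against 22.6 in the fed E and 60.04 in the starved E library. D was higher in the fed pair and lower in the starved pair (unadjusted p = 0.000422). The cardiac myosin light chain myl7 showed the same order, with 42.3 and 12.9 in the fed and 14.1 and 32.0 in the starved pair, D before E (unadjusted p = 0.00105). The calponin family gene tagln2 stood at 79.7 and 15.3 in the fed and 30.9 and 38.8 in the starved pair (unadjusted p = 0.0021).

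Read within letters, starved minus fed had a median of -1.90 for yolk lipoproteins in D and 0.35 in E, and of 1.1 for fast muscle genes in D and 0.24 in E. Hatching gland genes had medians of -0.96 in D and 0.26 in E, and epidermal genes -0.62 in D and 0.55 in E. Each of these sets 1 library against 1, so they are values without a test.

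The D minus E difference also followed the genomic span of genes, the distance between the listed start and end with introns included. Called genes higher in D had a median span of 4994 bp and called genes lower in D one of 29567 bp, beside 18078 bp for all genes. Across 8921 genes Spearman's rho between span and the difference was -0.31 (fed pair -0.30, starved pair -0.17), as a description across genes. The median difference went from 0.24 in the bin of shortest genes (median span 2670 bp) to -0.26 in the bin of longest genes (130422 bp), out of 10 equal bins. The 2 bins of shortest genes held 73 of the 104 higher calls in this set, and 18 of the 52 lower calls, 15 of them in the shortest bin, more than in any other bin. The 3 bins of longest genes held 0 of the higher and 25 of the lower calls. Without ribosomal and respiratory chain genes rho was -0.29 (8674 genes). Within single libraries, rho between span and a gene's deviation from its mean over libraries was -0.24 in the fed D, -0.13 in the starved D, 0.24 in the fed E and 0.15 in the starved E library, and between -0.21 and 0.20 in the other 8.

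**Figure D5:**
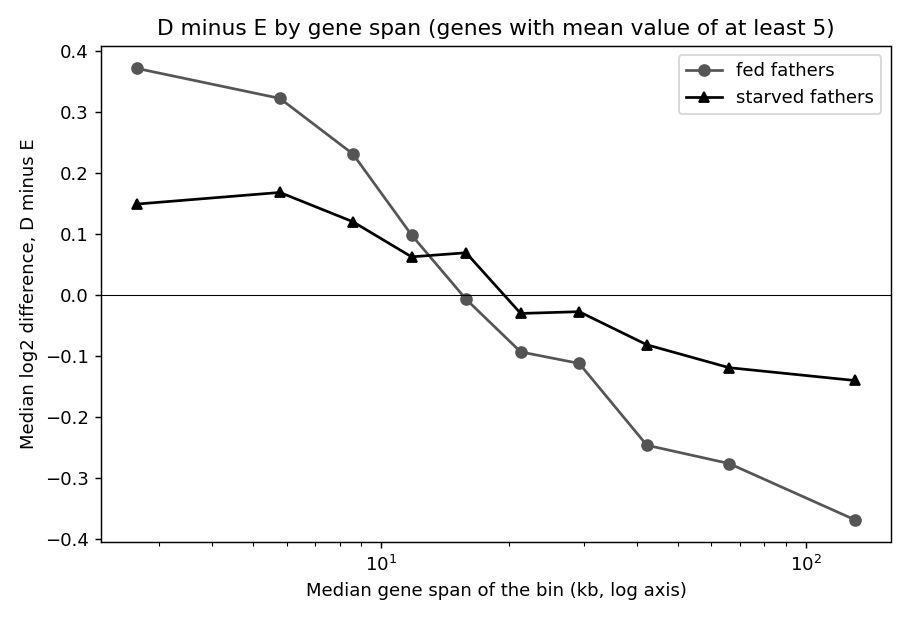
Median log2 difference D minus E in 10 equal bins of genes ordered by genomic span (x axis, kb, log axis), for fed fathers (circles) and starved fathers (triangles), over 8921 genes. Both lines run from above 0 for short genes to below 0 for long genes, from 0.37 to -0.37 with fed fathers and from 0.15 to -0.14 with starved fathers.

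The lists did not all follow span. Median spans were 5640 bp for ribosomal proteins, 5737 bp for respiratory chain genes and 4597 bp for epidermal genes, all with positive median differences, and 29727 bp for sarcomere genes with a negative one. Lists with spans below the median of all genes and negative median differences included fast muscle (11188 bp), lens (6344 bp), retina and eye field (5204 bp) and histones (406 bp). The others were slow muscle, red blood cell and heme synthesis, pigment cells, neuronal differentiation factors, neural progenitors, heat shock, glycolysis and Hox genes. Their median differences were smaller, from -0.25 (pigment cells) to -0.01 (glycolysis), and for histones the median was -0.19. With the trend on span removed, an alternative chosen after seeing the data, 111 genes were called (68 higher, 43 lower), 94 of them among the 159. The counts of called list members were then 9 ribosomal, 5 respiratory chain, 4 epidermal and 1 hatching gland gene higher in D, and 4 fast muscle, 1 sarcomere and 2 synapse genes lower in D. What part span has in the remaining difference was not tested.

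The list counts rested on the fed pair. Without the fed D library 1 ribosomal gene, 1 epidermal gene and 0 respiratory chain, hatching gland, fast muscle, sarcomere or synapse genes passed, and without the fed E library 2 ribosomal genes and 0 of the others. Without the starved D library 17 ribosomal, 12 respiratory chain, 9 epidermal, 4 hatching gland, 13 fast muscle, 6 sarcomere and 6 synapse genes passed. Without the starved E library the counts were 11, 10, 7, 3, 5, 3 and 2 in the same order.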

How the data were processed

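Libraries of 24-hour embryos were made with a 3' tag kit (QuantSeq, forward version) and sequenced on a NextSeq 500, per the labels' protocols. Reads were aligned with STAR and analysed with edgeR against GRCz11 (danRer11), as the submitters' processing notes list. Program versions and strand use were not given in the sources used here. A table of 13680 genes was deposited with 1 signal column per library, scaled counts as judged from the values because the headers give no unit, besides the authors' log2 fold change and FDR, an adjusted p-value, which per the file headers belong to the authors' own comparison and were not used. All values (100%) lay within 0.03 of a whole read (largest deviation 0.0272), which gave back 2950740 to 3934765 reads per library over listed genes.

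D against E was tested with limma 3.58.1 in R 4.3.3 on log2(value + 1), with replicate number and father group as terms over all 12 libraries (5 residual degrees of freedom), a variance trend, Benjamini-Hochberg adjustment over 13680 genes and a threshold of 0.05. Because the table held a normalized unit, limma took the place of the count test. Log2 differences on this scale understate those of low genes. The test of a difference between father groups used 1 mean for each of the 4 libraries and the other fed and starved libraries (6 residual degrees of freedom). On simulated reads, the test recovered 12% of 100 genes altered 2-fold and 52% of 100 altered 4-fold, with 8 false calls. The altered genes were drawn only from those above a floor of mean reads. The simulated libraries had no differences between replicate numbers, so the 8 false calls do not show how often replicates of these data would differ. Alternatives were other pseudocounts, a filter at a mean value of 5, other scalings, edgeR 4.0.16, limma-voom, DESeq2 1.42.0, fits without replicate number or on the 4 libraries, other thresholds and omission of each library. No libraries of the same father group were duplicates by a chi-square of their reads. Fed and starved libraries were not compared with each other in this way.

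The members and the 49 gene lists (48 with at least 5 measured genes) were chosen with earlier results of these data known. The text names the 12 called genes with the smallest p in each direction, up to 4 per list by p, and 5 from the test between fathers; clone-style names were left out. Gene symbols are those of the table. List scores are means over members of log2(value + 1) centred per gene. Lists are described by counts and medians, with no test.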

Additional observations from a re-analysis of the deposited data

Results flagged for a closer look

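Each father group has 6 libraries, and 280 sets of 6 values (named genes and list scores) were examined with Dixon's criterion for a library that stands apart. It was met in 8 sets, a smaller share than the about 1 of 20 that chance alone meets. In 4 of the 8 the library was a D or E library. These 4 were values of genes named for their D minus E difference or for its difference between fathers. A D or E library at the end of the range is thus partly a result of how the genes were chosen. The protocadherin pcdh2g17 met it in both father groups. Its value in the fed E library, 128.55, was above the other 5 fed-father libraries, and its value in the starved D library, 26.07, was below the other 5 starved-father libraries. The cardiac light chain myl7 was lowest in the fed E library, at 12.91. The enolase eno1a was lowest in the fed D library, at 21.71. The other 4 were list scores in libraries outside code 1242. Starved replicate 4 was lowest for lens genes (-1.4) and pigment cell genes (-0.965), fed replicate 4 was lowest for red blood cell and heme synthesis genes (-0.471), and starved replicate 2 was highest for heat shock genes (0.449).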

How the results depend on the processing

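All 159 called genes kept their sign in every fit that gave a value. Fits that changed only the spread, or left out a library of another code, gave the same estimate, so the sign there was fixed. The number called depended on the spread used. Without the replicate block 0 genes passed, and with the 4 libraries alone 0 passed; the 4 libraries with no father group term gave 6 (4 higher in D, 2 lower). At an adjusted p below 0.1 the counts were 294, 189 and 105, and below 0.01 they were 42, 33 and 9. Scaling to genes outside the mitochondrial chromosome gave 82 lower genes, edgeR 25, and removal of the span trend 68 higher genes. Leaving out 1 library at a time gave 14 to 272 calls, 9 to 144 higher and 4 to 128 lower. Same-numbered libraries of the 2 father groups had deviations from their group means that correlated at 0.0992 to 0.445, with replicate 1 below 0.1 and the other 5 above it. This falls short of the mark set for pairing (over 0.1 in every pair), and the labels do not say what a shared code marks, yet the fit reported here takes same-numbered libraries together by having replicate number as a term. Every starved library correlated best with its own number, but fed replicates 5 and 6 correlated best with starved replicates 4 and 3.

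Genes at least 2-fold apart in both father groups numbered 66 higher and 42 lower with a pseudocount of 5, and 189 and 83 at a mean value of at least 5. The sign of apoc2 turned with limma-voom (0.0266). With 1 library left out, the difference ranged from -0.97 to 0.876 for apoc2, from -2.74 to 0.542 for hmox1a and from -0.681 to 1.19 for myl7, none of them called. The cause of these shifts was not tested. Depth limits genes of few reads: 3 reads correspond to a value of 0.701 to 1.12 in the 4 libraries.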
